A study of Xenopus laevis with 3 samples.

Results

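MicroRNAs with a *Xenopus* name were compared between dorsal gastrula tissue of *Xenopus laevis* embryos injected with Lhx1-AS (an antisense oligonucleotide that depletes *lhx1*) and the same tissue of uninjected embryos. The deposited table lists 1985 sequences, of which 175 carry the name of a *X. laevis* or *X. tropicalis* miRNA, and the 79 with at least 10 raw reads in either library were taken (13 *X. laevis* and 66 *X. tropicalis* names). For Lhx1-AS, 400 pg were injected into both dorsal cells at the 4-cell stage. Both groups were kept at 14°C to stage 10.5, the early gastrula, and 30 dorsal pieces from 3 experiments were pooled into 1 library per group. Injected embryos were selected by a red fluorescent tracer on the dorsal side, and the control embryos received no oligonucleotide at all, so the loss of *lhx1* and the handling of injected embryos cannot be told apart. With 1 library a side there is neither a spread between replicates nor a p-value.

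A miRNA is cut from a hairpin precursor, and either arm of the hairpin (5p or 3p) can give the mature strand. Bases 2 to 8 of the mature strand, the seed, pair with target mRNAs, so miRNAs that share a seed can share targets. In *Xenopus*, miR-427 is made in large amounts once the zygotic genome is switched on, and it helps to clear maternal mRNAs and to tune Nodal signaling. Lhx1 is a LIM homeodomain transcription factor of the organizer, on the dorsal side of the gastrula, and later of the kidney field. Many of the other miRNAs compared here are best known from tissues that form later, such as smooth muscle, blood vessels, nervous system or liver.

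The sequences that the results turn on are given as listed in the deposited table (5′ to 3′, with T for U and the seed in capitals). The products of mir-427, with its relative miR-428, held most of the *Xenopus*-named reads.
miR-427: aAAGTGCTtcctgttttgggcgt
miR-428: tAAGTGCTctctagttcggttgct
mir-427-p5: aCCCAAAAcggggctctctct
mir-427-p3: cGTGACTGaattatgatgag
The miRNAs of the miR-23, miR-24 and miR-27 families included the largest rises with over 50 reads.
miR-24a-3p: tGGCTCAGttcagcaggaac
miR-23b: aTCACATTgccagggattacc
miR-23a: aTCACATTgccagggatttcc
miR-27b: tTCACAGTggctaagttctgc
miR-27a: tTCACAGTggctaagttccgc
The following share a seed within each pair but differed in their change.
let-7c: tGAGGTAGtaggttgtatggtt
let-7f: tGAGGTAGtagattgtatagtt
miR-125b: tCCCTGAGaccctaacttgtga
miR-125a: tCCCTGAGacccttaacctgtga
miR-99: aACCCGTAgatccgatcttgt
miR-100: aACCCGTAgatccgaacttgtg
miR-25: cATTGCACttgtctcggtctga
miR-363-3p: aATTGCACggtatccatctgtaa
The arms of mir-199a, and 3 much-read miRNAs with ratios well below 1 outside mir-427, complete the set.
miR-199a-5p: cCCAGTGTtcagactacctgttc
miR-199a-3p: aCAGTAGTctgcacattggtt
miR-22-3p: aAGCTGCCagttgaagaactgt
miR-148a: tCAGTGCActacagaactttgt
miR-146b: tGAGAACTgaattccatggact

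Counted from 1 at the 5′ end, miR-27b and miR-27a differ at 1 of 21 bases (T19C), miR-23b and miR-23a at 1 of 21 (A19T), miR-99 and miR-100 at 1 of 21 (T16A) and let-7c and let-7f at 2 of 22 (G12A and G19A). The authors' processing divided a read that fitted several listed sequences among them, so the counts of such near-identical sequences are uncertain, and 18 of the 79 miRNAs have reads that are not whole. Of the 79, 40 share 1 of 15 seeds with another compared miRNA.

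All listed sequences together took 133894 uninjected and 56026 Lhx1-AS reads, and the 79 miRNAs 56014 and 27886 of these. Each level is given as raw reads, and each ratio is that of the authors' normalized counts, Lhx1-AS over uninjected, followed by its 95% counting interval (Clopper-Pearson, from the raw reads). The intervals cover counting error only. They do not cover the origin of a read, which may come from a species other than the one in its name. The normalization made 1 uninjected read worth 1.09 normalized counts and 1 Lhx1-AS read worth 1.29. Higher stands for a ratio of 2 or more, and lower for one of 0.5 or less. Since mir-427 took 82.1% (81.8 to 82.5) of the *Xenopus*-named reads without and 61.8% (61.2 to 62.4) with Lhx1-AS, each ratio was also computed with the libraries scaled to the *Xenopus*-named reads outside mir-427, which lowers every log2 ratio by 0.35.

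The mir-427 products were lower with Lhx1-AS and a broad set of less abundant miRNAs was higher. Of the 79 miRNAs, 26 were called higher (32.9% of those compared), 5 lower (6.33%) and 48 neither. The interval lay above 1 for 34 and below 1 for 11. The 5 lower calls were miR-427, mir-427-p5, mir-427-p3, miR-146b and let-7i, the last with an interval that holds 1. Among the higher calls, miR-222 was the exception whose interval holds 1. The median log2 ratio was 0.35. With scaling outside mir-427 the median was 0.0043, 21 miRNAs were called higher (26.6%) and 14 lower (17.7%), and 10 miRNAs with a ratio above 1 turned to below 1. Since this scaling lowers every ratio by the same factor, all 21 had to be among the 26, so the overlap is no separate support. For 19 of the 21 the interval lay above 1 with this scaling, and so on both scales. With scaling to all listed reads, by contrast, 50 were higher and none lower, and 24 of the 29 with a ratio below 1 turned to above 1.

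The filter bears on these counts. In the Lhx1-AS library alone, 8 miRNAs reached 10 reads, and all 8 were called higher, namely miR-7, mir-212-p5, miR-145, miR-20a-5p, miR-138, miR-181a-2-3p, miR-221 and miR-222. Having passed through the Lhx1-AS library, none of them could have been called lower. A further 2 passed in the uninjected library alone (let-7i, lower, and miR-144, neither), and these could not have been called higher. Of the 69 that reached 10 reads in both, 18 were higher and 4 lower. Just inside the limit lay miR-138 with 0 and 10 reads, miR-144 with 11 and 9, and miR-338 and let-7g with 11 and 13 each. Just outside lay miR-10c with 9.5 and 0 reads, miR-205 with 9 and 3, and mir-150-p3 with 3 and 9.

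**Figure D1:**
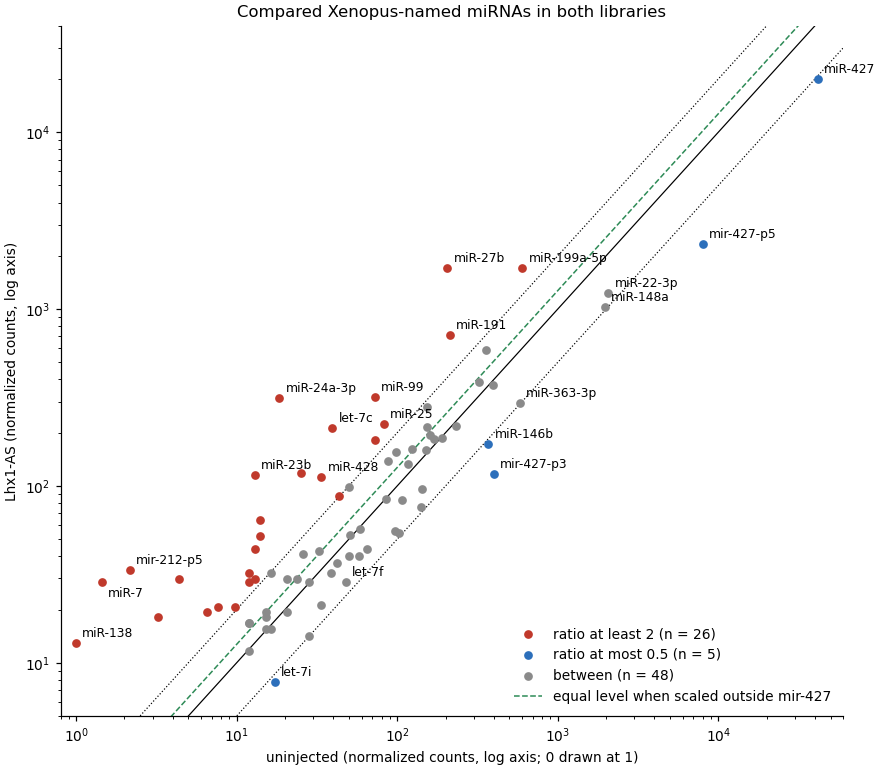
Normalized counts of the 79 miRNAs, with uninjected on the x axis and Lhx1-AS on the y axis (log axes). The solid line marks equal levels, the dotted lines a ratio of 2 and of 0.5, and the dashed green line equal levels when scaled outside mir-427. The 26 higher calls lie mostly at low levels, and the 3 mir-427 products lie among the lower calls.

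The 3 products of mir-427 did not change to the same extent. MiR-427 had 38438 uninjected reads (41752 normalized counts) and 15455 Lhx1-AS reads (19981), with a ratio of 0.479 (0.470 to 0.488). Mir-427-p5, from the other arm, had 7356 and 1813 reads, with a ratio of 0.293 (0.279 to 0.309). Mir-427-p3, a further product that does not carry the seed of miR-427, had 369 and 90 reads with a ratio of 0.290 (0.228 to 0.366). The first was just past the limit for a call and the other products well past it, and their intervals do not overlap that of miR-427. With scaling outside mir-427 the ratios were 0.376, 0.231 and 0.228. With scaling to all listed reads they were 0.961, 0.589 and 0.583, so all 3 calls were lost, and with scaling to mappable reads miR-427 lost its call at 0.518. A further 4 predicted sequences that hold bases 2 to 18 of miR-427 went from 13246 to 4374 reads together, with a ratio of 0.393 (0.380 to 0.407).

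MiR-428, which has the seed of miR-427, went the other way. It had 31 uninjected and 87 Lhx1-AS reads, with a ratio of 3.34 (2.19 to 5.21), and 2.63 with scaling outside mir-427. It rose from 0.0806% to 0.560% of the reads of the 2 miRNAs with this seed. Mir-302-p5, from the arm opposite to the mature miR-302 strand of the mammalian early embryo, had 24 and 32 reads and a ratio of 1.59 (0.91 to 2.82), so its change lay within counting error.

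All 5 compared members of the miR-23, miR-24 and miR-27 families, which lie together in paralogous clusters in vertebrates, were higher with Lhx1-AS (5 of 5, against 32.9% of all compared). MiR-24a-3p had 17 and 244 reads and a ratio of 17.1 (10.5 to 29.8). MiR-23b had 12 and 89 reads and a ratio of 8.83 (4.81 to 17.7). MiR-27b had 189.3 and 1322 reads and a ratio of 8.31 (7.13 to 9.73). These are the members of the miR-23b cluster, and all exceeded an 8-fold difference with the authors' scaling. With scaling outside mir-427 their ratios were 13.4, 6.94 and 6.54, in the same order. MiR-23a (23 and 92 reads) and miR-27a (12.8 and 49.3 reads), members of the paralogous cluster, were higher by less, with ratios of 4.76 (2.99 to 7.88) and 4.58 (2.44 to 9.23). The summed ratio of the 5 with the low-read members of the list was 8.42 (7.38 to 9.64), and 6.62 with scaling outside mir-427. The study selected clusters on these same libraries, the miR-23b and the miR-199a clusters among them, so their direction here is not independent evidence.

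MiR-199a and miR-214, which are made from 1 transcript in mammals and are known from mesenchyme, differed from each other. MiR-199a-5p had 554.5 and 1322.5 reads and a ratio of 2.84 (2.57 to 3.14), and became the third most read of the 79. MiR-199a-3p, from the other arm, had 141 and 216 reads and a ratio of 1.82 (1.47 to 2.27), which is not a call. MiR-214 had 14 and 12 reads and a ratio of 1.02 (0.43 to 2.38). Its interval is wide and holds 1. MiR-145 and miR-143, smooth muscle miRNAs that form 1 cluster in vertebrates, had 4 and 23 reads and 46 and 76 reads, with ratios of 6.84 (2.34 to 27.2) and 1.97 (1.35 to 2.90).

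The miR-125 and miR-10 miRNAs, and miR-99 with its relative miR-100, split. MiR-99 had 67 and 245 reads and a ratio of 4.35 (3.31 to 5.79). MiR-125b had 67 and 141.5 reads and a ratio of 2.51 (1.87 to 3.41). Let-7c, which forms a cluster with relatives of these miRNAs in mammals, had 36.3 and 164.3 reads and a ratio of 5.38 (3.74 to 7.94). These 3 were all called higher, although miR-125b fell just under the limit, at 1.98, with scaling outside mir-427. MiR-100 had 330 and 454 reads, with a ratio of 1.64 (1.42 to 1.89). MiR-125a had 89 and 43 reads, with a ratio of 0.575 (0.390 to 0.837). With scaling outside mir-427 it was called lower, at 0.452 (0.307 to 0.658). MiR-10a and miR-10b, which lie in the Hox clusters, had 108 and 103 and 214.5 and 169 reads, with ratios of 1.14 (0.858 to 1.501) and 0.938 (0.762 to 1.15), with intervals that hold 1. MiR-10b nevertheless fell from rank 12 to 16, beyond counting error, and with scaling outside mir-427 its ratio was 0.738 (0.599 to 0.906).

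The other let-7 miRNAs, a family known to build up as cells differentiate, did not follow let-7c. Let-7f had 44 and 22 reads and a ratio of 0.595 (0.340 to 1.01), let-7i had 16 and 6 reads and a ratio of 0.446 (0.143 to 1.201), and let-7g had 11 and 13 reads and a ratio of 1.41 (0.58 to 3.47). In all, 1 member was called higher and 1 lower of 4 compared (against 32.9% and 6.33% of all compared). Let-7i passed the read limit in the uninjected library alone, so it could not have been called higher. With scaling outside mir-427 let-7f (0.468) was called lower as well. The sum over the 4 rose from 107.3 to 205.3 reads, with a ratio of 2.28 (1.79 to 2.90), and let-7c carried the rise.

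Of the miRNAs of the mir-17-92 type clusters, which act in cell proliferation, 4 of 12 compared were higher and none lower (against 32.9% higher of all compared). MiR-25 had 76 and 173 reads and a ratio of 2.71 (2.06 to 3.60), and miR-17-5p had 12 and 34 reads and a ratio of 3.37 (1.70 to 7.15). MiR-20a-5p (3 and 14 reads) and miR-18a-3p (11 and 25 reads) were the others called higher. MiR-20a-5p passed the read limit in the Lhx1-AS library alone, so it could not have been called lower. MiR-363-3p, which shares the seed of miR-25, went the other way with 534 and 228 reads and a ratio of 0.508 (0.433 to 0.595), just short of a call. With scaling outside mir-427 it was called lower, at 0.400 (0.341 to 0.468). MiR-92a (113.5 and 125 reads), mir-92a-1-p5 (297 and 299) and miR-93a (138.5 and 123) had ratios between 1.06 and 1.31. MiR-17-3p had 15 and 25 reads, miR-363 30 and 33, miR-19b 19 and 23 and miR-20 15 and 12. The summed ratio of the list was 1.06 (0.98 to 1.15), and 0.831 with scaling outside mir-427, where 4 were higher and 1 lower.

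The miR-15 and miR-16 family, which in *Xenopus* limits the Nodal receptor Acvr2a, had a summed ratio below 1, and none of 6 compared was called (against 32.9% higher and 6.33% lower of all compared). MiR-16b had 131.5 and 74.5 reads with a ratio of 0.674 (0.501 to 0.903), miR-15b had 95 and 42 reads with a ratio of 0.526 (0.357 to 0.764), and miR-15c had 60 and 34 reads with a ratio of 0.674 (0.429 to 1.04). MiR-16c had 26 and 22 reads, with a ratio of 1.01 (0.54 to 1.85). The summed ratio of the list was 0.693 (0.584 to 0.821), and 0.545 with scaling outside mir-427. Mir-16a-p3, from the opposite arm, had 26 and 11 reads, and mir-15c-p3 had 22 and 23. With scaling outside mir-427, miR-15b (0.414) and mir-16a-p3 (0.396) were called lower. With scaling to all listed reads, miR-16b, miR-15b and miR-15c had ratios of 1.35, 1.06 and 1.35, and with sequences of other names added miR-16b and miR-15c also turned to above 1, at 1.21 and 1.16.

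The miR-30 family, which in *Xenopus* acts on *lhx1* itself in the developing kidney, had a summed ratio of 1.08 (0.95 to 1.23), but its 5 members spread to both sides of it. MiR-30e had 40 and 68 reads with a ratio of 2.02 (1.35 to 3.07) and miR-30a-5p 81 and 107 reads with a ratio of 1.57 (1.17 to 2.12). MiR-30d had 147 and 151 reads with a ratio of 1.22 (0.97 to 1.54). MiR-30c had 98.5 and 64.5 reads with a ratio of 0.779 (0.560 to 1.08), and miR-30b 129 and 59 reads with a ratio of 0.544 (0.393 to 0.746). The intervals of miR-30e and miR-30b lay on opposite sides of 1. With scaling outside mir-427 miR-30e was no longer a call, at 1.59, and miR-30b was called lower, at 0.428.

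Outside mir-427, the 2 most read miRNAs of the uninjected library had ratios below 1 with Lhx1-AS, short of a call. MiR-22-3p had 1900 and 950 reads with a ratio of 0.595 (0.550 to 0.644), and miR-148a had 1806 and 795 reads with a ratio of 0.524 (0.481 to 0.570). MiR-148b, with the seed of miR-148a, had 175 and 145 reads, with a ratio of 0.986 (0.786 to 1.24). MiR-146b, of a family known in mammals for damping innate immune signaling, had 340.5 and 133.5 reads and a ratio of 0.467 (0.379 to 0.572). It was the lower call with the most reads outside mir-427. Scaled outside mir-427, miR-22-3p (0.468) and miR-148a (0.412) became lower calls, whereas with scaling to all listed reads their ratios turned to 1.19 and 1.05. MiR-146b lost its call with scaling to mappable reads, at 0.505, and to all listed reads, at 0.937.

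Several further clusters were represented by a few miRNAs each. MiR-191 had 195 and 553 reads and a ratio of 3.38 (2.86 to 3.99), and miR-425-5p of the same vertebrate cluster had 11 and 22 reads and a ratio of 2.38 (1.11 to 5.44), and lost its call with scaling outside mir-427, at 1.87 (0.87 to 4.28). MiR-103 had 12.8 and 40.2 reads and a ratio of 3.73 (1.95 to 7.62). MiR-221 and miR-222, which share a seed and a cluster, had 7 and 16 and 9 and 16 reads, and both were called higher. With scaling outside mir-427, miR-222 lost its call, at 1.66, and the interval of miR-221 (0.83 to 6.15) held 1. MiR-181a-5p had 361.5 and 286.5 reads with a ratio of 0.943 (0.805 to 1.11), miR-181b had 39 and 28.5 reads with a ratio of 0.870 (0.517 to 1.45), and miR-26 had 141 and 167.5 reads with a ratio of 1.41 (1.12 to 1.78). MiR-181a-2-3p, from the other arm of a miR-181a precursor, had 6 and 15 reads and was called higher. Its interval held 1 with scaling outside mir-427 (0.86 to 7.36). Like miR-221 and miR-222, it passed the read limit in the Lhx1-AS library alone, so none of them could have been called lower. MiR-130b had 54 and 44 reads, mir-130b-p5 78 and 65 and miR-130a 19 and 15. The 3 miR-130 products had ratios between 0.940 and 0.992, the narrowest range among the families with 3 or more members compared.

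Markers of tissues that form later were read beside these values. MiRNAs of muscle (the miR-1 and miR-133 type) had 1 read in each library and none was compared. Of 8 listed miRNAs of blood and endothelium 5 were compared and none was called: miR-142 had 156 and 143 reads, miR-126-3p 91 and 120, miR-126-5p 46 and 31, miR-451 53 and 31 and miR-144 11 and 9. The summed ratio of all 8 listed was 1.13 (0.97 to 1.31). Of 8 listed miRNAs of fibroblasts and smooth muscle, 5 were compared and 2 were higher, against 32.9% of all compared. These were miR-199a-5p and miR-145, and only the latter passed the read limit in the Lhx1-AS library alone. The sum over all 8 listed went from 829.9 to 2144 normalized counts, with a ratio of 2.58 (2.37 to 2.82), most of it miR-199a-5p. Mir-199b-p3 was at 0 in both. Of 17 listed miRNAs of neural and sensory tissue, 7 were compared and 3 were higher, all of which passed the read limit in the Lhx1-AS library alone, so the count supports nothing. The summed ratio of all 17 listed was 1.56 (1.22 to 1.98), and 1.03 (0.785 to 1.35) without these 3. Leaving them out was an alternative chosen after seeing the data.

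The neural miRNAs called higher rested on few uninjected reads. MiR-7 had 1.33 and 22.2 reads and a ratio of 19.8 (3.85 to 374.9), and mir-212-p5 had 2 and 26 reads and a ratio of 15.5 (3.87 to 134.5). MiR-138 had 0 and 10 reads, a ratio of 3.97 with the 0 set to 3 reads, and the counting error of the 10 reads lowers this to 1.90. MiR-128 had 31 and 16.5 reads, miR-183 47 and 41, miR-182-5p 14 and 14 and miR-338 11 and 13. With the authors' scaling the intervals of these 4 hold 1. With scaling outside mir-427, miR-128 was called lower, at 0.498 (0.257 to 0.934). MiR-204, a miRNA of the eye, had 35.5 and 25 reads. MiR-122, a liver miRNA, had 12 and 23 reads and a ratio of 2.28 (1.09 to 5.03), which became 1.79 (0.86 to 3.96), no call, with scaling outside mir-427, and miR-200a, of epithelia, had 14 and 15 reads. Fewer cells of a type and less of a miRNA per cell cannot be told apart in these pooled pieces, and the part of such cells in the differences was not tested.

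**Figure D2:**
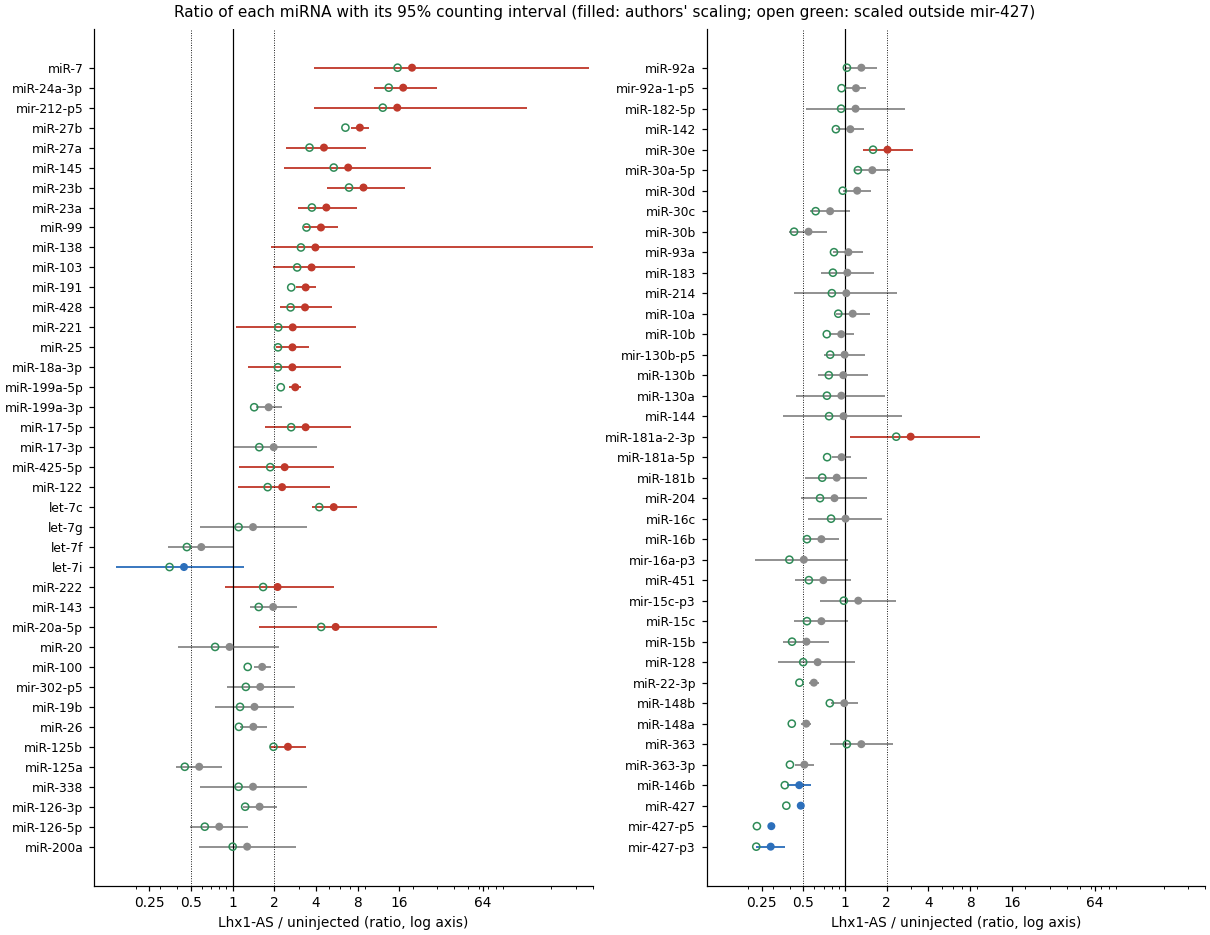
Ratio of Lhx1-AS to uninjected for each of the 79 miRNAs on a log axis, ordered by family from the highest summed ratio to the lowest. Filled points with bars give the authors' scaling and the 95% counting interval (red higher, blue lower, grey neither, with the bars of miR-138 open to the right), and open green points give scaling outside mir-427. The 3 mir-427 products are at the bottom of the right panel and miR-30, let-7 and miR-125 members lie on both sides of 1.

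Ranks need no scaling between the libraries. The 79 miRNAs were ranked by reads in each library, rank 1 being the most read. A change was taken as beyond counting error where the ranks at the 95% Poisson bounds of the 2 counts do not overlap. The counts of the other miRNAs were held, so their counting error is not covered. Of the 79, 32 changed rank beyond counting error (40.5%), 17 upward and 15 downward, and 16 of the 17 that moved up were called higher. Ranks and calls come from the same reads, so this overlap is no separate support. Among the 17, miR-7, mir-212-p5 and miR-145 passed the read limit in the Lhx1-AS library alone. Among the 15, let-7i passed it in the uninjected library alone. The median absolute change was 8 places. Across the 79 miRNAs, which are not replicates, reads in both libraries had a Spearman rho of 0.83.

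MiR-427 and mir-427-p5 kept ranks 1 and 2, so their lower ratios are not seen in rank, whereas mir-427-p3 moved from rank 7 to rank 30. MiR-24a-3p made the largest move upward, from 55 to 12. MiR-23b moved from 64 to 31, let-7c from 43 to 18, miR-27a from 62 to 39, miR-23a from 51 to 29 and miR-99 from 32 to 11. MiR-27b entered the 5 most read, from 14 to 4. Downward, mir-16a-p3 moved from 48 to 76, let-7i from 56 to 79, let-7f from 40 to 61, miR-30b from 22 to 38, miR-15b from 26 to 42 and miR-146b from 9 to 23. MiR-22-3p (3 to 5) and miR-148a (4 to 6) gave way to miR-199a-5p (5 to 3) and miR-27b. MiR-100, mir-92a-1-p5 and miR-126-3p moved by no more than 2 places.

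**Figure D3:**
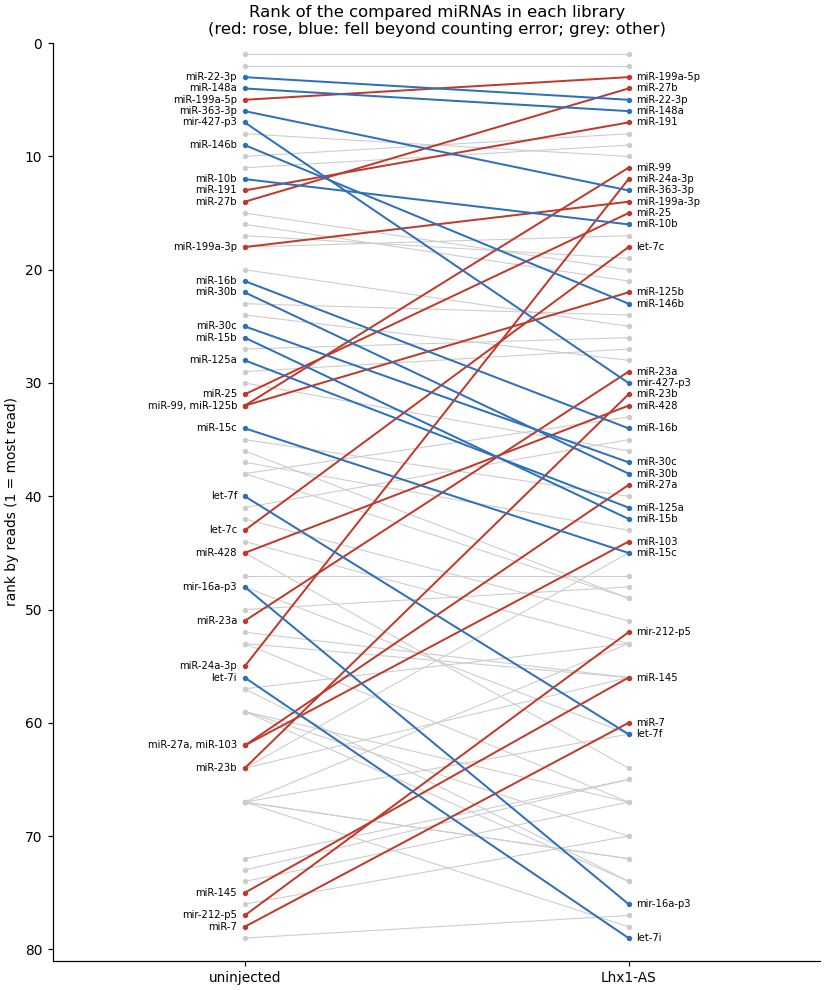
Rank of each of the 79 miRNAs by raw reads in the uninjected library (left) and the Lhx1-AS library (right), with 1 line per miRNA. The 17 that rose and the 15 that fell beyond counting error are coloured and named, and miR-24a-3p makes the longest move upward, from 55 to 12.

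The share of a precursor's reads on each arm is also free of scaling. Both arms were compared for 9 precursors, with rows that name no arm taken as the arm opposite to their named partner, and for 3 the intervals of the 5p share did not overlap. For mir-427, taken as mir-427-p5 over its sum with miR-427, the 5p share fell from 16.1% (15.7 to 16.4) to 10.5% (10.05 to 10.97). For mir-199a it rose from 79.7% (76.5 to 82.7) to 86.0% (84.1 to 87.7). For mir-363 it rose from 5.32% (3.62 to 7.51) to 12.6% (8.87 to 17.3), as miR-363-3p fell from 534 to 228 reads while its 5p strand had 30 and 33. Here the 5p strand carries a *X. laevis* name and the 3p strand a *X. tropicalis* name. The other 6 (mir-126, mir-17, mir-181a-2, mir-130b, mir-15c and mir-92a-1) had overlapping intervals. Mir-130b kept its arms nearly at the same share, 59.1% and 59.6% on 5p. For mir-126 the shares were 33.6% (25.7 to 42.1) and 20.5% (14.4 to 27.9).

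Within a seed, and among the compared *Xenopus*-named miRNAs only, the miRNA with the highest count changed in 2 of the 15 shared seeds, let-7 and miR-125. Among the 4 let-7 miRNAs let-7c rose from 33.9% (25.0 to 43.6) to 80.0% (73.9 to 85.3) of the reads, while let-7f fell from 41.0% (31.6 to 50.9) to 10.7% (6.84 to 15.8). MiR-125b rose from 42.9% (35.1 to 51.1) to 76.7% (69.9 to 82.6) of the *Xenopus*-named miR-125 reads, which were 156 and 184.5. Sequences of this seed under other names, left out of these shares, had 50 and 196.6 reads. Among them a hamster-named miR-125a had 26 and 93.5. Let-7f and miR-125a had the highest counts of their seeds without Lhx1-AS and let-7c and miR-125b with it. Without Lhx1-AS the lead lay within counting error. The intervals of let-7f and let-7c overlapped there, as did those of miR-125a (57.1%, 48.9 to 64.9) and miR-125b. MiR-25 rose from 10.5% (8.37 to 13.0) to 32.9% (28.9 to 37.1) of the miR-25, miR-92a and miR-363-3p reads, while miR-363-3p fell from 73.8% (70.4 to 77.0) to 43.3% (39.1 to 47.7) and still led.

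Smaller shifts were seen elsewhere. MiR-99 rose from 16.9% to 35.1% of the reads shared with miR-100, miR-17-5p from 7.12% to 18.6% of the reads of its seed, and miR-148b from 8.83% to 15.4% of those shared with miR-148a. MiR-30e rose from 8.07% (5.83 to 10.8) to 15.1% (11.9 to 18.8) and miR-30b fell from 26.0% (22.2 to 30.1) to 13.1% (10.1 to 16.6). By contrast, within the miR-15 and miR-16 seed miR-16b held 42.1% and 43.2% of the reads. MiR-181a-5p held 90.3% and 91.0% of its seed, miR-130b 74.0% and 74.6%, and miR-10b 66.5% and 62.1%, with overlapping intervals.

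**Figure D4:**
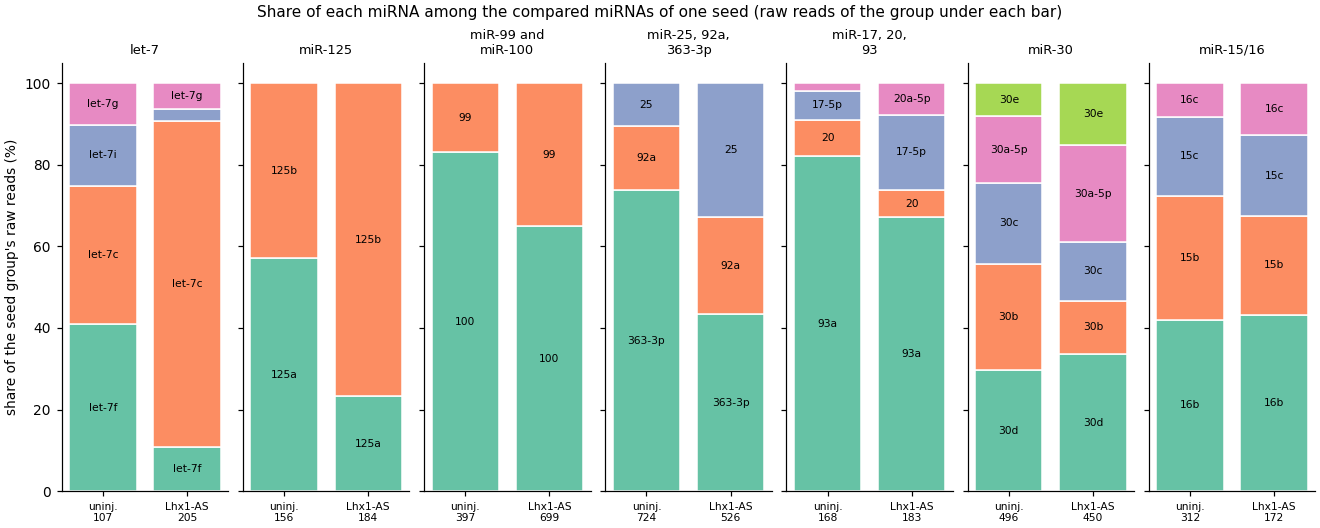
Share of each miRNA in the raw reads of the compared *Xenopus*-named miRNAs of its seed (y axis, percent), for 7 seeds. The left bar is the uninjected and the right bar the Lhx1-AS library, with the summed reads below each bar. Let-7c goes from 33.9% to 80.0% and miR-25 from 10.5% to 32.9%, whereas miR-16b stays at 42.1% and 43.2%.

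The table also lists sequences of the same seeds under names of other species, and these gave a different picture for several families. A name gives the species of the matched listing, and the read itself may come from another. With the same read limit, 133 sequences named after other species could be compared, of which 68 were higher (51.1%) and 12 lower (9.02%). For 18 seeds both kinds of name could be set side by side, and the summed ratio under other names was above that of the *Xenopus* names in 16. The intervals lay apart for 6 of the 18, always with the other names higher, and overlapped for 12. These sequences were set beside the *Xenopus* names after their values had been seen.

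For the miR-146b and the miR-15 and miR-16 seeds, the *Xenopus* ratio lay below 1 and the other above it. For the miR-146b seed the ratio was 0.467 (0.379 to 0.572) under the *Xenopus* name and 2.63 (1.73 to 4.06) under other names. For the miR-15 and miR-16 seed it was 0.657 (0.542 to 0.794) against 1.70 (1.43 to 2.02), and a zebrafish-named miR-16b that holds bases 2 to 18 of the *Xenopus* miR-16b had 167 and 219 reads where the latter had 131.5 and 74.5. For the miR-99 and miR-100 seed, both were higher, at 2.10 (1.85 to 2.38) and 9.32 (8.07 to 10.8), and 1 horse-named miR-99b held 195 and 1598 reads of the latter. For the miR-125 seed the ratios were 1.41 (1.13 to 1.75) and 4.68 (3.42 to 6.52). The miR-148 and miR-17 seeds were the others whose intervals lay apart.

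For other seeds the intervals under both kinds of name overlapped. For miR-25, miR-92a and miR-363-3p the ratios were 0.865 (0.772 to 0.970) and 0.891 (0.720 to 1.10), for miR-10 they were 1.004 (0.851 to 1.18) and 1.22 (0.94 to 1.59), and for miR-23 they were 6.16 (4.27 to 9.11) and 3.97 (1.84 to 9.50). The reverse was seen for a medaka-named miR-92a (167.7 and 123.8 reads, ratio 0.879, 0.691 to 1.12) beside the *Xenopus* miR-92a (1.31, 1.01 to 1.71). Sequences named after placental mammals rose from 1.97% to 12.6% of the listed reads with Lhx1-AS, with a ratio of 3.18 (3.04 to 3.33), and their part in the values of the *Xenopus*-named miRNAs was not tested. With all rows of other names that hold bases 2 to 18 of a compared miRNA added to it, 26 were called higher and 4 lower, but directions turned for 4 miRNAs. MiR-16b went to 1.21, miR-15c to 1.16 and miR-10b to 1.01, all from below 1, and miR-183 went from 1.04 to 0.980.

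**Figure D5:**
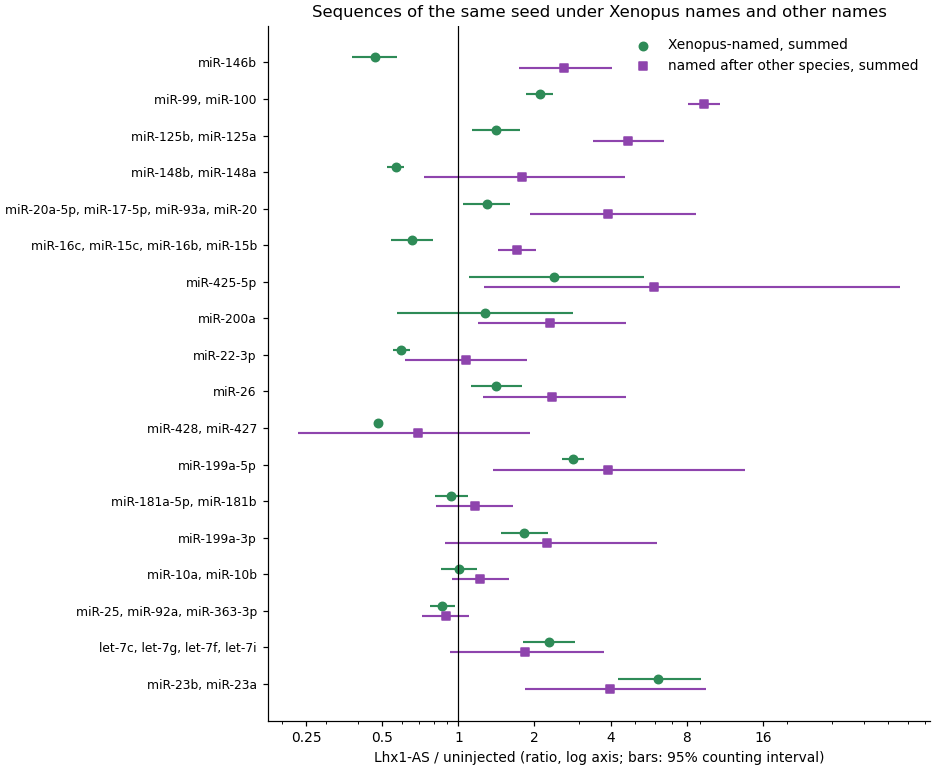
Ratio of Lhx1-AS to uninjected (log axis, bars for the 95% counting interval) for 18 seeds, summed over the *Xenopus*-named miRNAs (green circles) and over sequences of the same seed with names of other species (purple squares). The squares lie to the right of the circles for 16 seeds, and the bars lie apart for 6.

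The 79 sequences are 20 to 24 bases long. Across them, which are not replicates, the log2 ratio had a Pearson r of 0.27 with the GC content and 0.08 with the length. Of 36 listed with no change to the matched sequence, 15 were higher and 2 lower. Of 23 with a longer 3′ end 6 were higher and 2 lower, and of 15 with a shorter 3′ end 5 were higher and none lower. None of the 5 with a base substitution was higher and 2 were lower, miR-427 and mir-427-p3. A further 3 (miR-199a-3p, miR-142 and miR-93a) start at another 5′ base, so that their bases 2 to 8 are those of the listed form. A sequence with 2 kinds of change is counted under both. Of the 13 with a name that gives the 5p arm, 5 were higher and 1 lower, and of the 11 with the 3p arm 3 were higher and 1 lower. These counts, like those by end, stand beside 32.9% higher and 6.33% lower over all 79, and were not tested.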

How the data were processed

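Small RNA of 3 libraries was sequenced, and the uninjected and Lhx1-AS libraries were used here. The authors sequenced reads of 40 bases (SCS 2.8, RTA 1.8.70), cut the adapter, kept those of 15 to 32 bases and, with ACGT101-miR 4.2, matched them to miRBase and to frog and chordate genomes. Not given in the sources used here: miRBase release, genome builds and the origin of the divisors below. Raw reads were deposited in the form of expected counts (not whole for 381 of the listed sequences) and a normalized signal, the raw value divided by 0.921 (uninjected) or 0.773 (Lhx1-AS). The libraries held 5802603 and 4805539 reads, of which 3157393 and 2451390 were mappable per the deposited read summary.

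Ratios, intervals, ranks and shares were computed with Python 3.11.15 (numpy 2.4.6, pandas 2.3.3, scipy 1.17.1, matplotlib 3.10.9). The ratios, their intervals and the calls were tested on simulated data, but the ranks and shares were not. A 0 was set to 3 reads, and no ratio was taken with 3 reads or fewer in each library. edgeR 4.0.16 and DESeq2 1.42.0 (R 4.3.3) gave scaling factors only. Those of DESeq2 were 1 for both libraries, so that scaling leaves the raw reads as they are. The miRNAs compared, the lists and the choices were made with earlier results of these data known. Named by rule were 60 of the 79: all mir-427 products, the 5 most read, the 12 largest and 12 smallest ratios with at least 50 reads over both libraries, the 8 largest rank changes each way, both arms of a precursor, and up to 3 of each list. The other 19 (such as miR-7, miR-145, miR-125b, miR-30e and let-7i) were named after their values were seen. With 1 library a side, no test and no leave-one-out could be run.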

Additional observations from a re-analysis of the deposited data

Results flagged for a closer look

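The 28 listed sequences of a rodent X-linked miRNA cluster, none with a *Xenopus* name, were outside the comparisons above, but had a signal in the Lhx1-AS library well above the uninjected control. They had 12 reads (13.0 normalized counts) without and 1818 reads (2350.45 normalized counts) with Lhx1-AS, with a ratio of 180.3 (103.0 to 349.6). The source of these reads was not tested, and neither was the part of that source in the higher calls above.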

How the results depend on the processing

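The 26 higher calls of 79 became 50 with scaling to all listed reads and 11 at a 4-fold limit. With at least 50 reads in either library there were 12 of 43, a count taken from fewer miRNAs. The higher calls stayed within 1.5 times of 26 under the other alternatives, such as 21 with scaling outside mir-427. The 5 lower calls were less stable. They became 14 with scaling outside mir-427, 13 with DESeq2 factors (1 for both libraries) and 3 with scaling to mappable reads. Scaling to all listed reads left 0. Without a filter there were 10 of 110, at a 1.5-fold limit 14 and at a 4-fold limit 0. Counted by an interval below 1 there were 11. The median log2 ratio of 0.35 became 0.0043 with scaling outside mir-427, 1.36 with scaling to all listed reads, 0.46 with scaling to mappable reads, 0.10 with DESeq2 factors and 0.18 with at least 50 reads. The cause was not tested. EdgeR's TMM left all 3 values within these limits, as did summing sequences of 1 name and, chosen after seeing the data, a limit of 10 reads in both libraries or adding sequences of other names. The count of 32 rank changes was 33 among all 161 *Xenopus*-named sequences with a read and 26 among the 43 with at least 50 reads, and the count of 3 precursors with arms apart was unchanged among 10. Each other scaling multiplies all ratios by 1 factor, from 0.786 to 2.01. Of the 60 named miRNAs, none that was called could therefore change direction. Uncalled ones such as miR-22-3p and miR-148a did, with scaling to all listed reads. Among the 60, the ratio left its own counting interval for 45 with scaling to all listed reads and 18 with scaling outside mir-427. It did so for 11 with DESeq2 factors, 3 with mappable reads and 0 with TMM. No paired analysis was possible because each group has 1 library. Depth limits the miRNAs with few uninjected reads most, such as miR-7, mir-212-p5 and miR-138.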
